A study of Mus musculus with 2 samples.

Results

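The immediate early genes described here are a set of 32 genes, given as a list and chosen by name, that cells transcribe within minutes of a stimulus. All 32 were among the 24130 gene symbols measured, and each was read by cell type and library. Single-cell RNA was measured in the hippocampus of male C57BL/6 mice in 2 libraries, 1 per group. In the EMF_AuNPs group gold nanoparticles were injected into the hippocampus and the mice spent 3 weeks between a pair of Helmholtz coils that generate an electromagnetic field; the control group received saline. Both groups carry an age label of 6 months, although the sample titles speak of an aged brain. Coils are mentioned for a control group too, so whether the saline mice were in the field is unclear, and the number of mice pooled per library is not given in the sources used here. Hippocampal tissue of both groups was dissociated in warm papain, and the cells went into the 10x droplet protocol, in which each captured RNA molecule carries a unique molecular identifier (UMI).

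Immediate early genes need no newly made protein to switch on. Kinase cascades such as the MAP kinase pathway activate factors already bound at their promoters, among them SRF, which binds the CArG box with its ETS-family partners, and CREB, which binds the cyclic AMP response element. Many products are transcription factors (the AP-1, EGR, NR4A and KLF families), and others end the response by removing phosphate from kinases or by degrading short-lived mRNAs. Neurons use them after synaptic activity, while microglia and vascular cells express them readily after tissue damage and during enzymatic dissociation. No library made without dissociation was analysed here, so RNA present in the tissue and RNA gained in the suspension cannot be told apart.

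Deposited barcodes numbered 7003 in EMF_AuNPs (19544686 UMIs) and 21583 in control (51091452 UMIs). After filters and removal of doublet calls, 6604 EMF_AuNPs cells with a median of 2319 UMIs and 17753 control cells with a median of 1836 UMIs remained, and 38 barcode sequences occurred in both libraries. Cells were placed in a class when at least 3 of its 8 gate markers were detected and no other class had more than 0.5 times as many. Barcodes with at least 50% haemoglobin UMIs were read as red blood cells. A class was compared when each library gave it 50 cells or more, which held for 9 classes. EMF_AuNPs cells numbered 661 in microglia, 1017 in oligodendrocytes, 1133 in astrocytes, 875 in endothelial cells, 152 in pericytes, 93 in smooth muscle cells, 50 in ependymal cells, 124 in choroid plexus cells and 366 in red blood cells. Control cells numbered 2765 in microglia, 5423 in oligodendrocytes, 2391 in astrocytes, 2454 in endothelial cells, 342 in pericytes, 178 in smooth muscle cells, 86 in ependymal cells, 318 in choroid plexus cells and 143 in red blood cells. Names rest on these markers alone. Cells with just 3 gate markers made up 37 of the EMF_AuNPs and 161 of the control microglia, and 133 of the EMF_AuNPs and 542 of the control astrocytes. Marker genes kept out of the gate fitted the class names, for example C1qa at 12204 CPM in EMF_AuNPs and 8536 in control microglia. Neurons were too few to compare, with 16 EMF_AuNPs and 101 control cells in the excitatory class.

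Levels are counts per 1e6 (CPM), that is UMIs of a gene scaled to 1e6 UMIs of its class in a library, with 95% exact Poisson intervals in brackets, and are not divided by gene length, so levels are compared between classes and libraries and not between genes. Ratios are log2 values, EMF_AuNPs over control, after adding 1 CPM on each side. Intervals of ratios, in square brackets, are exact conditional binomial intervals with nothing added. All intervals cover counting error only. With 1 library per group no difference had a replicate check, and none was tested; a member is written as higher or lower in EMF_AuNPs when the libraries differed by at least 1.5-fold. A member counts as measured in a class with at least 50 UMIs over both libraries and a mean of at least 10 CPM. The highest class of a member is read among the compared classes other than red blood cells.

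Summed over the 32 genes, the classes fell into a high set and a low set in both libraries. The sum in microglia was 19142 CPM (18909 to 19377) in EMF_AuNPs and 20758 (20625 to 20892) in control. In smooth muscle cells, which wrap arterioles, it was 13733 CPM (13308 to 14169) in EMF_AuNPs and 13863 (13482 to 14253) in control. In endothelial cells, the lining of blood vessels, it was 13459 CPM (13313 to 13606) in EMF_AuNPs and 14229.7 (14124 to 14336) in control. Microglia were thus highest of the compared classes in both libraries, and the intervals of smooth muscle and endothelial cells overlapped in both. Border macrophages, with too few cells to be compared, had 15718 CPM (14969 to 16495) in EMF_AuNPs. In control they had 22737 CPM (21862 to 23637), above microglia. Pericytes, the mural cells of capillaries, came next with 4735 CPM (4475 to 5006) in EMF_AuNPs and 6267 (6032 to 6508) in control.

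The remaining classes held far less. The sum was 2704 CPM in EMF_AuNPs and 2156 in control in oligodendrocytes, 2651 CPM in EMF_AuNPs and 2226 in control in ependymal cells, 1473 CPM in EMF_AuNPs and 1070.0 in control in astrocytes and 739 CPM in EMF_AuNPs and 756 in control in choroid plexus cells. Oligodendrocytes and ependymal cells had overlapping intervals in each library, astrocytes lay below them and choroid plexus cells lowest. Ttr, a choroid plexus marker kept out of the gate, alone had 342775 CPM in EMF_AuNPs and 418496 in control in choroid plexus cells. It stays in their total and lowers their CPM of all other genes, so their rank beside astrocytes rests on this scale. The lower share of Ttr in EMF_AuNPs also raises the ratios of their other genes. The median log2 ratio over all genes measured in choroid plexus cells was 0.35. Levels without Ttr were not computed. The log2 ratio of the sum was -0.12 in microglia, -0.08 in endothelial cells, -0.01 in smooth muscle cells and -0.40 in pericytes. It was 0.33 in oligodendrocytes, 0.25 in ependymal cells, 0.46 in astrocytes and -0.03 in choroid plexus cells. In red blood cells it was -0.56, the largest in size of the compared classes. On this scale no compared class differed 1.5-fold between the libraries in the sum. Over all cells together the sum was 6336 CPM in EMF_AuNPs and 6467 in control.

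**Figure D1:**
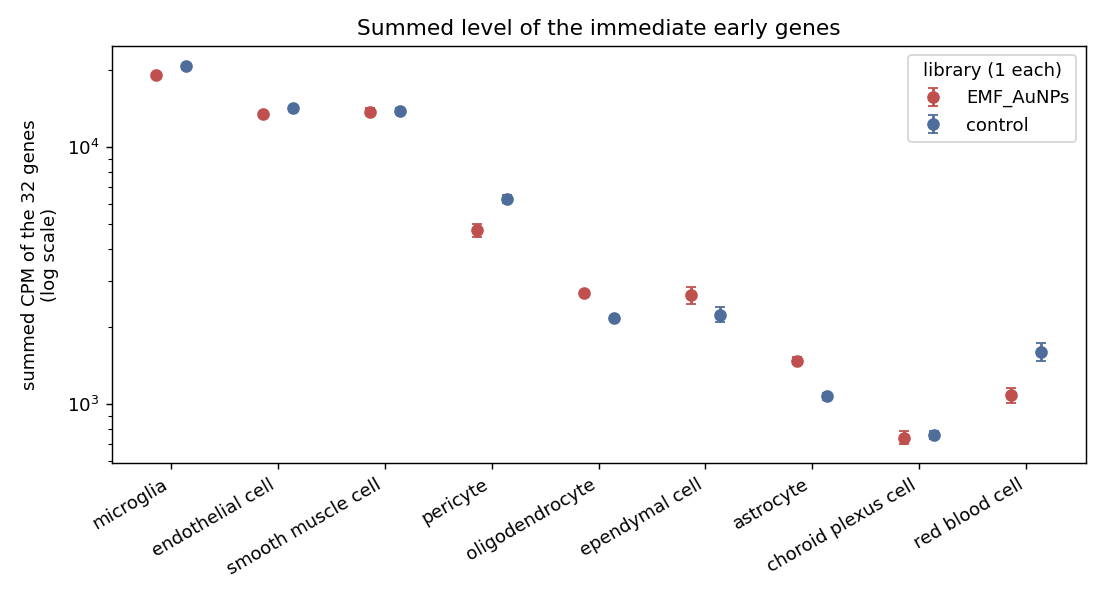
Summed CPM of the 32 immediate early genes in each class (log axis), with EMF_AuNPs points left of control points and bars for 95% Poisson intervals. Microglia, endothelial and smooth muscle cells lie well above all other compared classes in both libraries.

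Red blood cells were used to read the RNA that is free in the suspension, since their own transcripts are mostly haemoglobin. Haemoglobin took 68.8% of UMIs in EMF_AuNPs and 69.8% in control red blood cells. Scaled to 1e6 of their other UMIs, the 32 genes summed to 3464 in EMF_AuNPs and 5272 in control, at least 1.5-fold lower in EMF_AuNPs. That is above the same measure in oligodendrocytes (2735 in EMF_AuNPs and 2162 in control), ependymal cells (2659 in EMF_AuNPs and 2236 in control), astrocytes (1484 in EMF_AuNPs and 1072 in control) and choroid plexus cells (741 in EMF_AuNPs and 757 in control). By gene, the intervals lay above those of red blood cells in both libraries for 20 of 26 measured members in microglia, 18 of 27 in endothelial cells, 13 of 22 in smooth muscle cells and 3 of 12 in pericytes. The count was 1 of 20 in oligodendrocytes (Rhob), 1 of 6 in ependymal cells (Zfp36l1), 0 of 18 in astrocytes and 0 of 12 in choroid plexus cells, with Ttr left in the choroid plexus total. The share of all measured genes above the red blood cell level was not computed. These counts also depend on the UMIs of a class, so they are not read as a trait of the members. How much free RNA a cell of these classes holds was not measured, so for members under the red blood cell level RNA of the cell and free RNA cannot be told apart. Red blood cells thinned to an equal UMI count held the members unevenly. The variance over the mean of their member UMIs was 2.07 in EMF_AuNPs and 5.16 in control. No member UMI was found in 40.9% of EMF_AuNPs and 58.3% of control red blood cells. Barcodes entered this class whatever markers of other classes they held, and whether some also held other cells was not tested. The Poisson intervals of the red blood cell level do not cover the uneven spread over barcodes.

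The AP-1 subunits, which pair to form the AP-1 transcription factor, included the leading genes of the high classes. Fos, a founding subunit, was highest in smooth muscle cells with 2409 CPM (2233 to 2596) in EMF_AuNPs and 3979 (3776 to 4190.2) in control. In microglia Fos stood at 1149 CPM (1092 to 1207) in EMF_AuNPs and 2061 (2019 to 2103) in control. In endothelial cells it stood at 655 CPM (623 to 688) in EMF_AuNPs and 1224 (1193 to 1256) in control. Fos was lower in EMF_AuNPs in each of these classes, with intervals that did not overlap. Pericytes had 226 CPM (172 to 291) in EMF_AuNPs and 820.2 (737 to 910.4) in control, also lower in EMF_AuNPs.

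Fos was lower in 7 of the 9 classes in all, where 8.52% of all measured class and gene pairs were lower. The others were choroid plexus cells (20.5 CPM in EMF_AuNPs and 82.0 in control), ependymal cells (70.2 CPM in EMF_AuNPs and 109 in control) and red blood cells (47.4 CPM in EMF_AuNPs and 129.7 in control). Astrocytes had 45.05 CPM in EMF_AuNPs and 50.4 in control, within 1.5-fold. Oligodendrocytes went the other way with 60.5 CPM in EMF_AuNPs and 38.4 in control, the single class in which Fos was higher. The log2 ratios ran down to -1.95 in choroid plexus cells and -1.86 in pericytes. They were -1.43 in red blood cells, -0.90 in endothelial cells, -0.84 in microglia, -0.72 in smooth muscle cells, -0.63 in ependymal cells, -0.16 in astrocytes and 0.64 in oligodendrocytes.

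Jun, the usual partner of Fos, was highest in microglia at 4699 CPM (4584 to 4816) in EMF_AuNPs and 6955 (6878 to 7033) in control. Endothelial cells had 2971 CPM (2903 to 3040.2) in EMF_AuNPs and 3838 (3783 to 3893) in control, and smooth muscle cells 1513 CPM in EMF_AuNPs and 1954 in control. Its ratio was below 0 in all 9 compared classes and reached 1.5-fold lower in pericytes (-0.78) and red blood cells (-0.91). In astrocytes, at -0.01, the libraries hardly differed. Junb, a subunit that often restrains Jun, behaved otherwise. Smooth muscle cells had the highest level, 1621 CPM (1477 to 1775) in EMF_AuNPs and 1314 (1199 to 1438) in control, and microglia had 1569.7 CPM (1504 to 1638) in EMF_AuNPs and 1067 (1037 to 1097) in control. Junb was not lower in any class and was higher in astrocytes (59.7 CPM in EMF_AuNPs and 25.8 in control) and oligodendrocytes (45.3 CPM in EMF_AuNPs and 21.4 in control). Jund, which most cells carry without stimulation, was highest in microglia with 2797 CPM in EMF_AuNPs and 2369 in control and, red blood cells aside, lowest in choroid plexus cells in EMF_AuNPs and in astrocytes in control, with 289 CPM in EMF_AuNPs and 233 in control in choroid plexus cells and 354 CPM in EMF_AuNPs and 232 in control in astrocytes. Its log2 ratio lay between -0.05 in red blood cells and 0.61 in astrocytes.

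Of the rarer subunits, Fosb was highest in smooth muscle cells (324 CPM in EMF_AuNPs and 299 in control) and within 1.5-fold in the 3 classes where it was measured. Atf3, a stress-response factor of the same bZIP class, was highest in microglia with 356 CPM (325 to 389) in EMF_AuNPs and 570.3 (548 to 593) in control. Smooth muscle cells had 136 CPM in EMF_AuNPs and 374 in control and endothelial cells 41.7 CPM in EMF_AuNPs and 66.4 in control, so Atf3 was lower in EMF_AuNPs in all 3 classes that measured it. Fosl2 was highest in smooth muscle cells (62.8 CPM in EMF_AuNPs and 36.0 in control) and Maff, a small Maf protein, in endothelial cells (15.7 CPM in EMF_AuNPs and 11.6 in control), and both were measured in endothelial cells alone, within 1.5-fold.

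**Figure D2:**
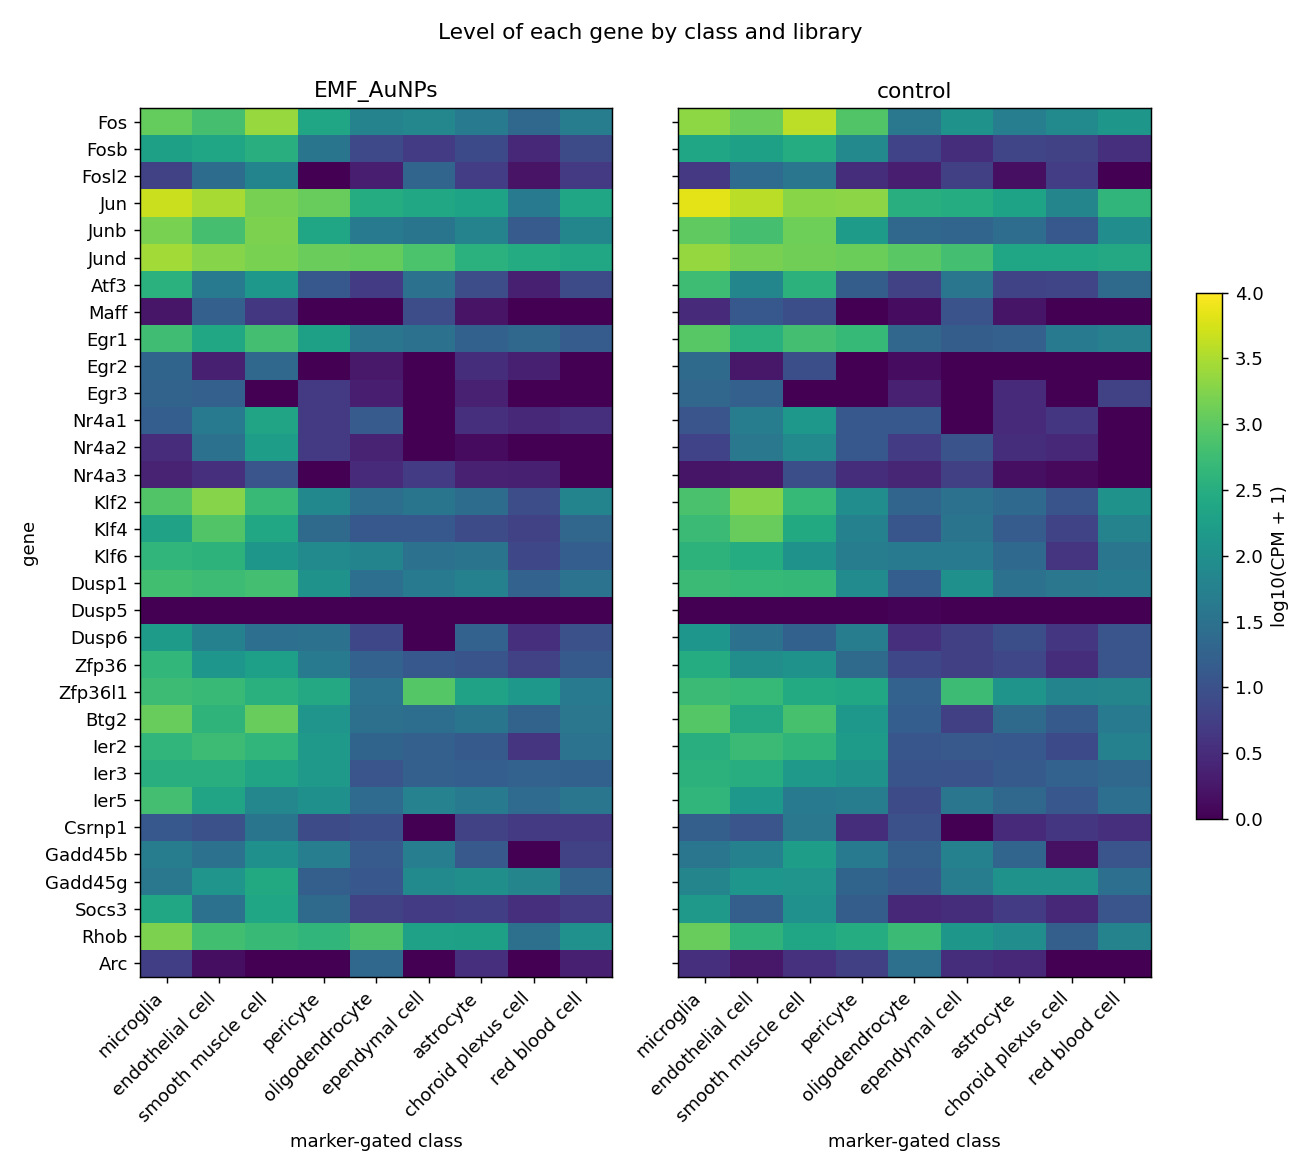
Level of each of the 32 genes (rows) in the 9 compared classes (columns), EMF_AuNPs left and control right, as log10 of CPM plus 1. Most rows are brightest in the first 3 columns; Jund and Rhob are bright in oligodendrocytes too, Zfp36l1 in ependymal cells, and Dusp5 is dark throughout.

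The EGR zinc-finger factors were led by Egr1, a common target of the SRF pathway. Microglia had 585 CPM (545 to 627) in EMF_AuNPs and 898 (871 to 926) in control and smooth muscle cells 628 CPM (539 to 726) in EMF_AuNPs and 634 (554 to 721) in control. Egr1 was therefore highest in smooth muscle cells in EMF_AuNPs, where the intervals of these classes overlapped, and in microglia in control, where they did not. It was lower in EMF_AuNPs in microglia (-0.62), in pericytes (184 CPM in EMF_AuNPs and 479 in control) and in choroid plexus cells (21.8 CPM in EMF_AuNPs and 41.3 in control), and higher in oligodendrocytes (36.1 CPM in EMF_AuNPs and 19.7 in control). Egr2 and Egr3 were sparse. Egr2 had 18.5 CPM in EMF_AuNPs and 22.8 in control in microglia, its highest class in control (smooth muscle cells in EMF_AuNPs), and Egr3 was highest there in both libraries with 17.8 CPM in EMF_AuNPs and 20.1 in control.

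The NR4A orphan nuclear receptors were highest in smooth muscle cells in both libraries. Nr4a1 had 216 CPM (166 to 277) in EMF_AuNPs and 133 (97.9 to 176) in control there, against 42.9 CPM in EMF_AuNPs and 46.2 in control in endothelial cells, the next class. Nr4a2 had 167 CPM (123 to 222) in EMF_AuNPs and 80.2 (53.7 to 115) in control in smooth muscle cells. Both were higher in EMF_AuNPs smooth muscle cells, with log2 ratios of 0.70 [0.14 to 1.28] and 1.05 [0.37 to 1.78] in that order. Nr4a3 was highest there too (10.5 CPM in EMF_AuNPs and 8.30 in control) but measured in no class.

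The KLF zinc-finger factors belong to vascular biology, where Klf2 and Klf4 are induced in endothelium by blood flow. Klf2 was highest in endothelial cells with 1872 CPM (1818 to 1927) in EMF_AuNPs and 1862 (1824 to 1901) in control, so the libraries were alike within their intervals at a log2 ratio of 0.01 [-0.04 to 0.06]. Microglia followed with 809 CPM in EMF_AuNPs and 710.4 in control. Klf4 was highest in endothelial cells as well, with 817 CPM (782 to 854) in EMF_AuNPs and 1177 (1147 to 1208) in control. In microglia Klf4 stood at 204 CPM (181 to 229) in EMF_AuNPs and 523 (502 to 545) in control, the lowest ratio of any measured member in that class at -1.35 [-1.54 to -1.18]. Klf6, a ubiquitous relative, was highest in microglia (426 CPM in EMF_AuNPs and 381 in control) and within 1.5-fold in the 5 classes where it was measured.

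**Figure D3:**
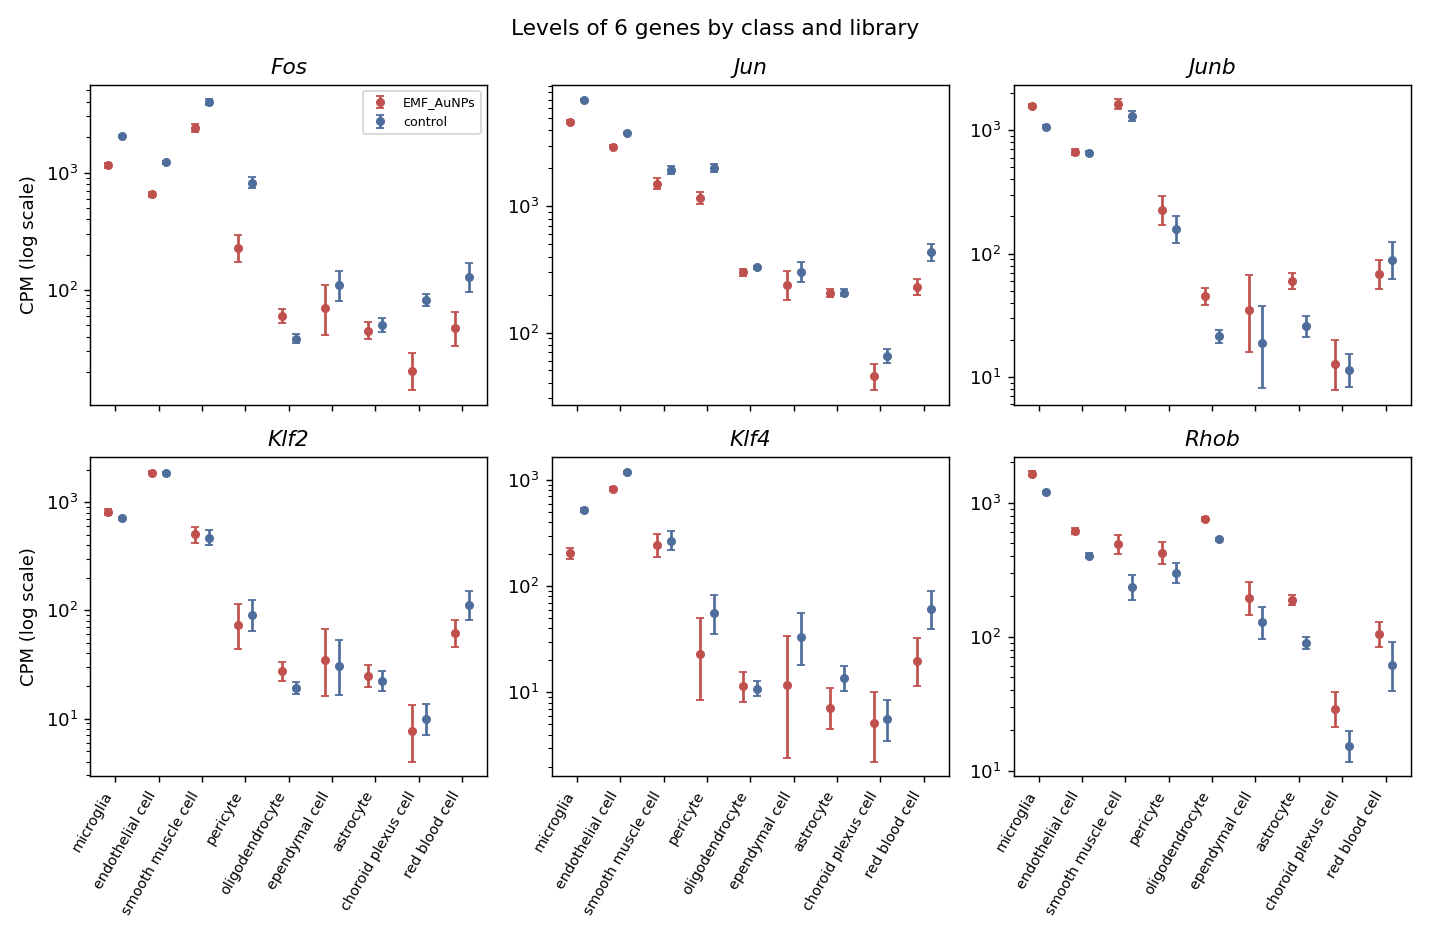
Levels of Fos, Jun, Junb, Klf2, Klf4 and Rhob in CPM (log axis) by class, EMF_AuNPs left of control, with 95% Poisson intervals. Fos points of EMF_AuNPs lie below control except in oligodendrocytes, Klf2 points nearly coincide in endothelial cells, and Rhob points of EMF_AuNPs lie above control in all 9 classes.

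Promoters of 4 of these genes, picked by hand, are shown as examples. Fos and Klf4 were lower in EMF_AuNPs in microglia, Junb was not lower in any class and Klf2 was alike in endothelial cells. Whether promoter sequence bears on these differences was not tested. Each line gives the 250 bases before the RefSeq transcription start on GRCm38.p6, read 5′ to 3′ on the gene's strand, and capitals mark motif matches.
Fos, chr12:85473640-85473889, plus strand: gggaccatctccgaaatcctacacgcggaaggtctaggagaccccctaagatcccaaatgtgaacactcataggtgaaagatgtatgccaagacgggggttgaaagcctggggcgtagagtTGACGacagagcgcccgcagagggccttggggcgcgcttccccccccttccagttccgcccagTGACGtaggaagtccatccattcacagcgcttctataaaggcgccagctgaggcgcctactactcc
Junb, chr8:84978749-84978998, minus strand: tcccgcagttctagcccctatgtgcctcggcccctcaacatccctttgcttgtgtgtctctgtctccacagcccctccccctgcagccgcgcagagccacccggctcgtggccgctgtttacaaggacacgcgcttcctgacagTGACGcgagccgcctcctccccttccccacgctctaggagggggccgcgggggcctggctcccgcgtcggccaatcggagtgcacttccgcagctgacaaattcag
Klf2, chr8:72318812-72319061, plus strand: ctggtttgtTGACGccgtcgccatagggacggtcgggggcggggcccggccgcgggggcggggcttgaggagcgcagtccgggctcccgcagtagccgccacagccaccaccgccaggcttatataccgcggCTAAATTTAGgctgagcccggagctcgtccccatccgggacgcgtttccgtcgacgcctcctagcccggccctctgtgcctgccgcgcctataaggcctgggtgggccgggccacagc
Klf4, chr4:55532476-55532725, minus strand: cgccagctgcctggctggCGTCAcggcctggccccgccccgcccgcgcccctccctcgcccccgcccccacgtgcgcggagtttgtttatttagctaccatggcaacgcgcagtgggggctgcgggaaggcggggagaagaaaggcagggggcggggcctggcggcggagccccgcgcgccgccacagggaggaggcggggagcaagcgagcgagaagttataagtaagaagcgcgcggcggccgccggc
The capitals are TGACG, the core of the cyclic AMP response element, on either strand, and in Klf2 also a MEF2 site. All 4 promoters carried this core, with 2 copies in Fos.

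Among the 28 members found in the RefSeq promoter table, 15 had TGACG in this window, against 19.8% of all 27025 genes in the table and 17.8% of its 32851 promoters. The 15 were Atf3, Btg2, Csrnp1, Dusp1, Dusp5, Egr2, Fos, Fosb, Junb, Klf2, Klf4, Maff, Nr4a1, Nr4a2 and Nr4a3. The full element TGACGTCA, which contains the core, was in Btg2, Dusp1 and Maff and in 1.77% of all genes. CArG boxes were in Dusp5, Egr2 and Zfp36 (1.62% of all genes), and MEF2 sites in Atf3, Jun, Klf2 and Nr4a2 (3.42%). The AP-1 site TGANTCA was in Csrnp1 and Zfp36l1 (7.82% of all genes), and the EGR site GCGTGGGCG in Maff (0.622%). Genes with several promoters count once with a match in any. A match says only that the letters are there, and both strands were searched. The members not found in the promoter table were Egr1, Egr3, Ier2 and Arc, so their promoters were not searched. Sites outside the window were not searched either, so a missing match does not mean that a gene lacks the site.

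The MAP kinase phosphatases switch off the kinases that induce the other members. Dusp1 was highest in smooth muscle cells in EMF_AuNPs and in microglia in control, although the intervals of these classes overlapped in both libraries. It had 642 CPM in EMF_AuNPs and 465 in control in smooth muscle cells and 625 CPM in EMF_AuNPs and 532 in control in microglia. It was higher in EMF_AuNPs oligodendrocytes (27.8 CPM in EMF_AuNPs and 14.9 in control) and astrocytes (55.5 CPM in EMF_AuNPs and 30.2 in control), and lower in ependymal (42.9 CPM in EMF_AuNPs and 102 in control) and choroid plexus cells (17.3 CPM in EMF_AuNPs and 36.9 in control). Dusp6, which acts on ERK, was highest in microglia (156 CPM in EMF_AuNPs and 123 in control) and higher in EMF_AuNPs endothelial cells (log2 ratio 0.83) and astrocytes (log2 ratio 0.97). Dusp5 had 1 UMI in all compared classes, in control oligodendrocytes. With 0 UMIs in EMF_AuNPs microglia, a level of up to 2.22 CPM (3 UMIs) remains possible there.

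The mRNA decay factors remove short-lived messages. Zfp36, or tristetraprolin, was highest in microglia with 443 CPM (409 to 480.4) in EMF_AuNPs and 303 (287 to 319) in control. Its relative Zfp36l1 was instead highest in ependymal cells with 885 CPM (773 to 1008) in EMF_AuNPs and 549 (480.2 to 624) in control, and microglia had 547 CPM in EMF_AuNPs and 529 in control. Zfp36l1 was higher in EMF_AuNPs in ependymal cells, choroid plexus cells (135 CPM in EMF_AuNPs and 63.2 in control), astrocytes (204 CPM in EMF_AuNPs and 117 in control) and oligodendrocytes (32.1 CPM in EMF_AuNPs and 17.4 in control), and lower in red blood cells (42.4 CPM in EMF_AuNPs and 66.1 in control). Btg2, an antiproliferative factor that recruits deadenylase, was highest in smooth muscle cells in EMF_AuNPs, with an interval overlapping that of microglia. In control it was highest in microglia, with intervals apart. It had 1175 CPM in EMF_AuNPs and 692 in control in smooth muscle cells and 1159.6 CPM in EMF_AuNPs and 880.2 in control in microglia, and was higher in EMF_AuNPs smooth muscle cells and oligodendrocytes.

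Of the other regulators, Socs3, the feedback inhibitor of cytokine signalling through JAK and STAT3, was higher in EMF_AuNPs in the 3 classes where it was measured. It was highest in microglia in both libraries, with 248 CPM (222 to 276) in EMF_AuNPs and 139 (129 to 151) in control. Smooth muscle cells had 227 CPM (175 to 289) in EMF_AuNPs and 105 (74.4 to 144) in control, and endothelial cells 29.7 CPM in EMF_AuNPs and 15.1 in control. Ier5 was highest in microglia (629 CPM in EMF_AuNPs and 423 in control) and higher in EMF_AuNPs in 4 of the 5 classes where it was measured, the exception being microglia at 0.57. Ier2 was highest in endothelial cells (553 CPM in EMF_AuNPs and 541 in control), and Ier3 in endothelial cells in EMF_AuNPs and in microglia in control (339 CPM in EMF_AuNPs and 312 in control in endothelial cells, 326 CPM in EMF_AuNPs and 368 in control in microglia). The Ier3 intervals of these classes overlapped in EMF_AuNPs and not in control.

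The stress genes Gadd45b and Gadd45g were past 1.5-fold in opposite directions in smooth muscle cells alone. Gadd45g did not lie above the red blood cell level there in both libraries. Gadd45b was highest in smooth muscle cells (101 CPM in EMF_AuNPs and 172 in control) and lower in EMF_AuNPs there, in endothelial cells (30.9 CPM in EMF_AuNPs and 57.0 in control) and in astrocytes (12.1 CPM in EMF_AuNPs and 19.4 in control). Gadd45g in smooth muscle cells had 272 CPM (215 to 339) in EMF_AuNPs and 119 (86.1 to 160.3) in control and was higher in EMF_AuNPs, whereas it was lower in microglia (39.3 CPM in EMF_AuNPs and 64.2 in control) and choroid plexus cells (64.2 CPM in EMF_AuNPs and 109 in control). Its highest class was smooth muscle cells in EMF_AuNPs and endothelial cells in control, with overlapping intervals of these classes in control. Endothelial cells had 120 CPM in EMF_AuNPs and 125 in control. Csrnp1 was highest in smooth muscle cells (34.9 CPM in EMF_AuNPs and 38.7 in control). Its gene overlaps Cx3cr1, a microglial gene, on the same strand, so the microglial value (11.9 CPM in EMF_AuNPs and 15.0 in control) is uncertain. Junb and Dusp1 overlap Prdx2 and Ergic1 on the opposite strand, and the strand setting of the counting is not given in the sources used here.

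Rhob, a small GTPase of endosomes and the actin skeleton, was highest in microglia with 1644 CPM (1576 to 1714) in EMF_AuNPs and 1191 (1159.7 to 1224) in control. Oligodendrocytes were next with 756 CPM (727 to 785) in EMF_AuNPs and 533 (521 to 546) in control, and Rhob was the single member there above the red blood cell level in both libraries. The ratio of Rhob was above 0 in all 9 classes and reached 1.5-fold in 6 of them, against 15.4% of all measured class and gene pairs that were higher. Smooth muscle cells had 488 CPM in EMF_AuNPs and 235 in control, astrocytes 187 CPM in EMF_AuNPs and 89.9 in control, endothelial cells 611 CPM in EMF_AuNPs and 402 in control, choroid plexus cells 28.9 CPM in EMF_AuNPs and 15.3 in control, ependymal cells 195 CPM in EMF_AuNPs and 128 in control and red blood cells 105 CPM in EMF_AuNPs and 61.0 in control. When ratios were centred on the median gene tested in that class, 3 classes were past 1.5-fold. Arc, the synaptic capsid-like protein of active neurons, was highest in oligodendrocytes with 21.2 CPM (16.7 to 26.6) in EMF_AuNPs and 29.3 (26.5 to 32.3) in control and measured there alone, within 1.5-fold.

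By class, microglia had 26 measured members, of which 1 was higher in EMF_AuNPs (Socs3) and 5 were lower (Klf4, Fos, Gadd45g, Atf3 and Egr1). Of all genes measured in microglia, 10.3% were higher and 12.9% lower. The median ratio was 0.17 over the measured members and -0.01 over all measured genes. The members that were not measured were Arc, Dusp5, Fosl2, Maff, Nr4a2 and Nr4a3. Median UMIs per cell were 1954 in EMF_AuNPs and 1545 in control. Microglia had 116 CPM in EMF_AuNPs and 58.8 in control for the 8 smooth muscle gate markers, and 238 CPM in EMF_AuNPs and 257 in control for the 8 endothelial ones. Their part in the microglial ratios was not tested.

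Endothelial cells had 27 measured members, with 4 higher (Socs3, Dusp6, Ier5 and Rhob; 11.2% of all genes) and 3 lower (Fos, Gadd45b and Atf3; 6.76%). The member median was 0.03, beside 0.07 over all genes. The 8 microglial gate markers, all detected in both libraries, summed to 395 CPM in EMF_AuNPs and 189 in control in endothelial cells, and all 8 were higher in EMF_AuNPs. The part of these RNAs in the endothelial ratios was not tested.

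Smooth muscle cells had 22 measured members, with 7 higher (Gadd45g, Socs3, Nr4a2, Rhob, Btg2, Nr4a1 and Zfp36; 14.6% of all genes) and 3 lower (Atf3, Gadd45b and Fos; 12.8%). The member median was 0.26, beside 0.04 over all genes. Of the 7 higher members, 3 lay above the red blood cell level in both libraries (Nr4a1, Nr4a2 and Btg2). The class rests on 93 EMF_AuNPs and 178 control cells, and its microglial gate markers summed to 293 CPM in EMF_AuNPs and 183 in control. Their part was not tested. Pericytes had 12 measured members, with 0 higher (12.5% of all genes) and 3 lower (Fos, Egr1 and Jun; 14.3%). The log2 ratio was -1.86 [-2.29 to -1.46] for Fos, -1.38 [-1.87 to -0.92] for Egr1 and -0.78 [-0.98 to -0.59] for Jun. Jun and Egr1 lay above the red blood cell level in both libraries and Fos did not. Markers of other classes differed in direction in pericytes: the microglial gate markers summed to 543 CPM in EMF_AuNPs and 225 in control, and the endothelial ones to 486 CPM in EMF_AuNPs and 962 in control. The smooth muscle gate markers summed to 260.1 CPM in EMF_AuNPs and 323 in control, and Myh11, the myosin of smooth muscle, had 26.8 CPM in EMF_AuNPs and 69.7 in control. The part of these RNAs in the pericyte ratios was not tested.

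**Figure D4:**
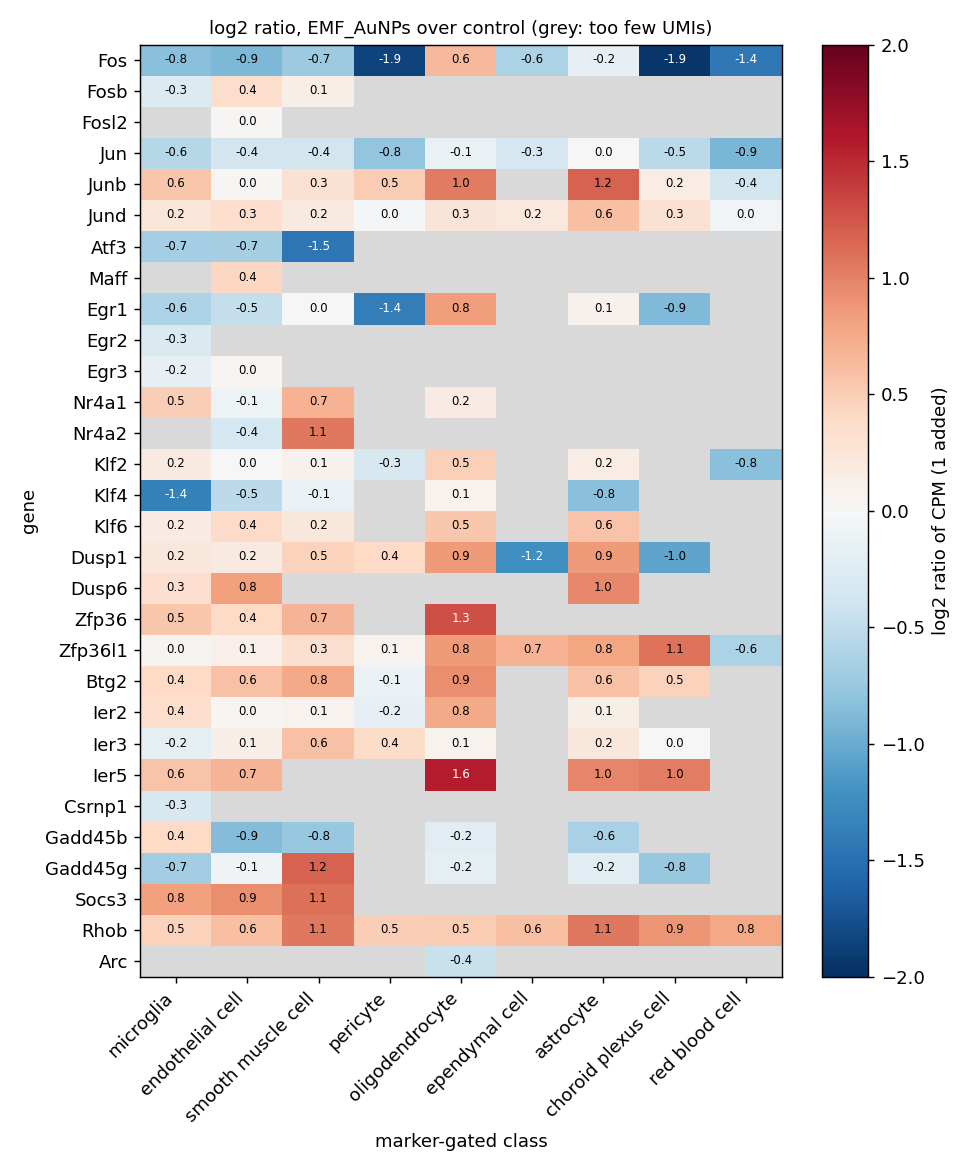
log2 ratio of EMF_AuNPs over control (red higher in EMF_AuNPs, blue lower) for 30 genes with at least 1 measured class; grey cells were not measured. The Fos row is blue in 8 columns and red in oligodendrocytes, and the Rhob row is red throughout.

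Oligodendrocytes, the myelinating cells, had 20 measured members, with 9 higher (Ier5, Zfp36, Junb, Btg2, Dusp1, Zfp36l1, Egr1, Ier2 and Fos) and 0 lower. Of all genes measured in the class, 7.94% were higher and 7.35% lower. The member median was 0.52, beside 0.02 over all genes. Ier5 had 24.1 CPM (19.2 to 29.8) in EMF_AuNPs and 7.49 (6.09 to 9.11) in control, and Zfp36 16.9 CPM in EMF_AuNPs and 6.37 in control. None of the 9 lay above the red blood cell level in both libraries. In cells thinned to 1000 UMIs, Fos was found in 4.50% of EMF_AuNPs and 3.15% of control oligodendrocytes, beside 5.67% of EMF_AuNPs and 5.76% of control red blood cells. Junb was found in 4.09% of EMF_AuNPs and 2.08% of control oligodendrocytes, beside 7.16% of EMF_AuNPs and 5.76% of control red blood cells. Haemoglobin counts among the 1000 UMIs of a thinned red blood cell, so their shares rest on fewer other UMIs and run low beside those of other classes. The microglial gate markers in oligodendrocytes summed to 397 CPM in EMF_AuNPs and 196 in control, with 7 of 8 higher in EMF_AuNPs and none at 0. The endothelial gate markers summed to 129.9 CPM in EMF_AuNPs and 173 in control. Their part was not tested. Median UMIs per cell were 3364 in EMF_AuNPs and 2301 in control in oligodendrocytes, beside 1918 in EMF_AuNPs and 2523 in control in red blood cells.

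Astrocytes had 18 measured members, with 7 higher (Junb, Rhob, Ier5, Dusp6, Dusp1, Zfp36l1 and Jund; 19.6% of all genes) and 2 lower (Klf4 and Gadd45b; 7.24%). The member median was 0.40, beside 0.20 over all genes. Zfp36l1 was found in 18.6% of EMF_AuNPs and 10.9% of control astrocytes after thinning, beside 2.99% of EMF_AuNPs and 1.44% of control red blood cells. These red blood cell shares run low for their haemoglobin. On the scale without haemoglobin, Zfp36l1 stood at 205 in EMF_AuNPs and 118 in control astrocytes. Red blood cells had 136 in EMF_AuNPs and 219 in control on that scale, so control astrocytes lay under them. Fos was found in 3.48% of EMF_AuNPs and 4.15% of control astrocytes, under the share in red blood cells. The microglial gate markers in astrocytes summed to 322 CPM in EMF_AuNPs and 198 in control, and their part was not tested.

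In choroid plexus cells, which secrete cerebrospinal fluid, 12 members were measured, with 3 higher (Zfp36l1, Ier5 and Rhob; 32.1% of all genes) and 4 lower (Fos, Dusp1, Egr1 and Gadd45g; 3.73%). The member median was 0.08, beside 0.35 over all genes. The thinned share with Fos was 3.23% in EMF_AuNPs and 6.67% in control. Ependymal cells had 6 measured members, with 2 higher (Zfp36l1 and Rhob; 14.7%) and 2 lower (Dusp1 and Fos; 10.7%), from 50 EMF_AuNPs cells. Red blood cells had 7 measured members, with 1 higher (Rhob; 21.5%) and 4 lower (Fos, Jun, Klf2 and Zfp36l1; 10.7%). Fos among their UMIs other than haemoglobin was 152 in EMF_AuNPs and 429 in control, scaled to 1e6 of them.

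Over the 9 classes, 34 of the 150 measured class and member pairs were higher and 26 lower. Over all genes the shares were 15.4% higher and 8.52% lower, as above. Without red blood cells the counts were 33 and 22 of 143 pairs, against 15.3% and 8.48% of all pairs. Pairs of 1 gene in several classes share the free RNA of their library and are not independent.

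Other genes around the early response were read from lists by the same fold. Of 16 upstream kinases and factors, microglia had 12 measured with 0 higher and 4 lower (10.3% and 12.9% of all genes), and astrocytes 11 with 5 higher and 1 lower (19.6% and 7.24%). Choroid plexus cells had 9 measured with 5 higher and 1 lower (32.1% and 3.73%). The coactivator Crebbp had 55.6 CPM in EMF_AuNPs and 128 in control in microglia, and the kinase Map2k1 33.3 CPM in EMF_AuNPs and 14.5 in control in astrocytes. Oligodendrocytes had 10 of these measured and none past 1.5-fold, and endothelial cells 15 with 2 higher and 2 lower (11.2% and 6.76%). The other classes had at most 3 measured. Of 20 other early response genes, microglia had 15 measured with 3 higher and 2 lower (10.3% and 12.9% of all genes). They included Ppp1r15a, which reverses translational arrest in stress, with 157 CPM in EMF_AuNPs and 286 in control in microglia and 73.0 CPM in EMF_AuNPs and 141 in control in endothelial cells, lower in EMF_AuNPs in both. Cebpb, an inflammatory transcription factor, was higher in EMF_AuNPs microglia with 128 CPM in EMF_AuNPs and 64.4 in control. Sgk1, a glucocorticoid-responsive kinase, had 129 CPM in EMF_AuNPs and 74.9 in control in oligodendrocytes and 25.1 CPM in EMF_AuNPs and 10.8 in control in astrocytes, higher in EMF_AuNPs in both.

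The heat shock genes encode chaperones. Of 8, microglia had 7 measured with none past 1.5-fold, astrocytes 6 with none, endothelial cells 8 with 1 higher (11.2% of all genes) and oligodendrocytes 7 with 2 lower (7.35%). Ependymal cells had 5 measured with 2 lower (10.7%), and pericytes 6 with 1 higher and 1 lower (12.5% and 14.3%). In oligodendrocytes Hsph1 had 68.8 CPM in EMF_AuNPs and 108 in control and Dnaja1 246 CPM in EMF_AuNPs and 375 in control, and in endothelial cells Hspa1b had 113 CPM in EMF_AuNPs and 61.1 in control. The late activity genes of neurons were mostly not measured, with at most 4 of 8 measured in any class.

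Across single cells the members were spread widely in the high classes. In cells thinned to 1000 UMIs, the median number of member UMIs was 17 in EMF_AuNPs and 20 in control microglia. It was 11 in EMF_AuNPs and 13 in control endothelial cells, 12 in EMF_AuNPs and 13 in control smooth muscle cells, and 3 in EMF_AuNPs and 5 in control pericytes. Thinning left out 148 EMF_AuNPs and 238 control microglia with fewer UMIs. The 10th and 90th percentiles were 4 and 34 in EMF_AuNPs microglia, and 7 and 35 in control microglia, so the EMF_AuNPs cells reached lower at the bottom. The variance over the mean was 10.1 in EMF_AuNPs and 5.65 in control microglia.

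**Figure D5:**
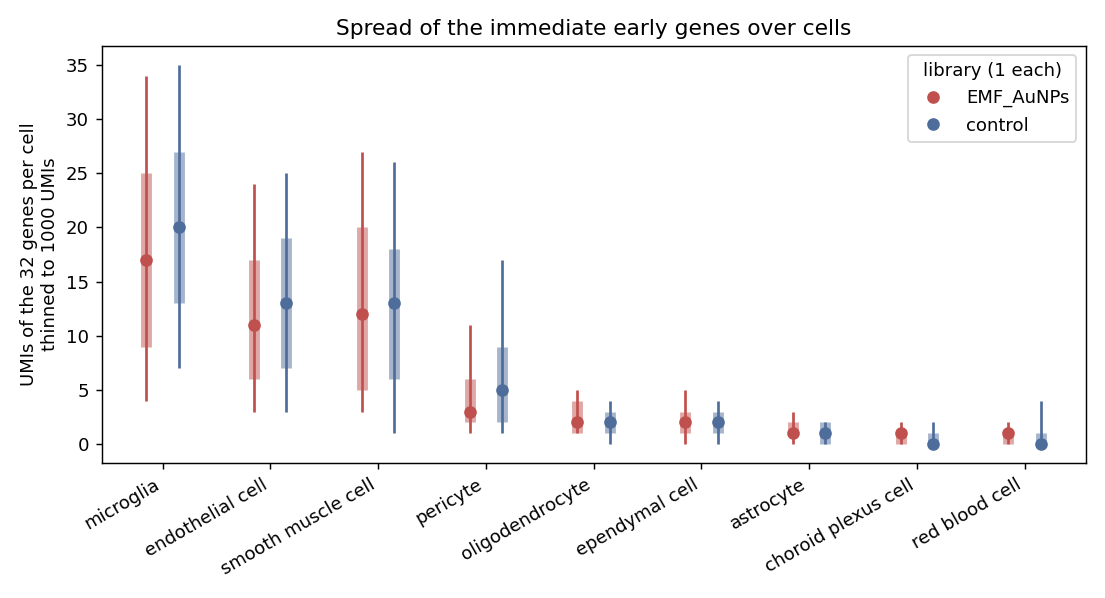
Member UMIs per cell after thinning each cell to 1000 UMIs, with medians (points), quartiles (thick bars) and 10th to 90th percentiles (thin lines), EMF_AuNPs left of control. Control medians are higher in microglia, endothelial cells, smooth muscle cells and pericytes, with largely overlapping ranges.

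The thinned share of cells with a Fos UMI was 45.4% (41.1% to 49.8%) in EMF_AuNPs and 63.8% (61.8% to 65.6%) in control in microglia, with 95% Clopper-Pearson intervals in brackets. It was 32.2% (29.0% to 35.5%) in EMF_AuNPs and 48.2% (46.0% to 50.3%) in control in endothelial cells and 10.1% (5.66% to 16.4%) in EMF_AuNPs and 37.1% (31.2% to 43.3%) in control in pericytes. In smooth muscle cells it was 79.5% in EMF_AuNPs and 81.8% in control, near equal although the level was lower in EMF_AuNPs. In red blood cells, whose shares run low for their haemoglobin, it was 5.67% (3.45% to 8.72%) in EMF_AuNPs and 5.76% (2.52% to 11.03%) in control. The intervals of microglia, endothelial and smooth muscle cells lay above this in both libraries, while that of EMF_AuNPs pericytes overlapped it. Detection of 1 member was compared with that of another in the same cells. Among thinned microglia with a Fos UMI, 40.3% in EMF_AuNPs and 49.7% in control also had Egr1, while among those without Fos 13.9% in EMF_AuNPs and 23.1% in control had it. Endothelial cells gave 26.8% in EMF_AuNPs and 29.3% in control with Fos, and 6.70% in EMF_AuNPs and 9.86% in control without it. Klf4 in endothelial cells was found in 51.3% of EMF_AuNPs and 65.2% of control cells with a Klf2 UMI, and in 30.4% of EMF_AuNPs and 47.7% of control cells without one. In smooth muscle cells Klf4 was found in 4 of 27 EMF_AuNPs and 9 of 45 control cells with a Klf2 UMI, and in 11 of 61 EMF_AuNPs and 29 of 125 control cells without one, with overlapping intervals.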

How the data were processed

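The deposited files are raw UMI counts per gene and barcode that the authors did not normalise. Per the submitters' processing notes they used STAR, Cell Ranger 3.0.2 and the mm10 build; annotation and strand setting are not stated there. The filter asked for 500 UMIs and 250 genes per barcode and kept 6996 EMF_AuNPs and 21425 control barcodes. Doublets were scored with Scrublet in scanpy 1.11.5 (seed 1). Its automatic threshold called 1 EMF_AuNPs cell, so the highest scores were called at the expected rate of 0.8% per 1000 cells in both libraries (392 EMF_AuNPs and 3672 control cells). Of 140 gate markers, 6 name genes that are missing from the matrices.

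Counts were summed per library and class. Levels, Poisson, conditional binomial and Clopper-Pearson intervals (95%) were computed with Python 3.11.15, numpy 2.4.6, scipy 1.17.1 and pandas 2.3.3, and the scripts were tested on simulated counts. Figures were drawn with matplotlib 3.10.9. With 1 library per group no test was computed. Cells below 1000 UMIs were left out of thinned shares. The members, marker lists and rules were chosen with earlier results of these data known, and the comparison with red blood cells was added after the values were seen. All members but Dusp5 are named with their highest class. Genes singled out by class were the 4 of highest level and up to 3 with the highest and 3 with the lowest ratio past 1.5-fold with at least 100 UMIs. Alternatives changed doublets, depth, gate, pseudocount, low-value filter, centring and library totals.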

Additional observations from a re-analysis of the deposited data

Results flagged for a closer look

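With at least 100 UMIs in each class and a ratio interval that left out 0, 4 members had libraries that differed by at least 1.5-fold in opposite directions in different classes; the difference between classes was not tested, and each class is 1 library per group. Fos had a log2 ratio of EMF_AuNPs over control of 0.64 in oligodendrocytes and -1.95 in choroid plexus cells. Egr1 had 0.84 in oligodendrocytes and -1.38 in pericytes. Dusp1 had 0.86 in oligodendrocytes and -1.05 in choroid plexus cells. Gadd45g had 1.19 in smooth muscle cells and -0.76 in choroid plexus cells. Zfp36l1 also went both ways, but its lower value, in red blood cells, did not meet these limits. In oligodendrocytes and choroid plexus cells none of the 4 lay above the red blood cell level in both libraries, nor did Gadd45g in smooth muscle cells.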

How the results depend on the processing

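The count of 34 higher class and member pairs ran from 29 to 37, and the 26 lower pairs from 18 to 28, under the alternatives other than dropping the filter on low values. Without that filter 69 pairs were higher and 59 lower. The median over classes of the log2 ratio of the summed level, -0.03 as reported, was -0.11 when ratios were centred on the class median of all genes; the shift of all genes was 0.35 in choroid plexus cells, 0.20 in astrocytes and 0.11 in red blood cells. Leaving out red blood cells, added after seeing the data, gave 33 higher and 22 lower. Of the alternative values for single members and class sums, 351 stayed on the same side of 1.5-fold or within their interval and 18 did not. Among single members 0 reversed. The class sums, all within 1.5-fold as reported, were not read for a reversal. With a pseudocount of 10 CPM, Fos was lower in 6 classes and Rhob higher in 5. No paired analysis was possible because each group has 1 library, and no library could be left out in turn. Depth limits the rarer members, and ependymal cells fall under 50 cells with at least 1000 UMIs or 4 markers. With fewer markers of other classes allowed, neither ependymal nor choroid plexus cells kept enough cells to compare.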

Other observations

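Classes with under 50 cells in a library were not compared, and their values are given without a reading. Border macrophages, the macrophages of vessels and meninges, had a summed level of 15718 CPM in EMF_AuNPs and 22737 in control from 44 EMF_AuNPs and 71 control cells. Fos stood there at 1608 CPM in EMF_AuNPs and 3550.1 in control, and Jun at 4053 CPM in EMF_AuNPs and 5699.8 in control. Fibroblasts summed to 4784 CPM in EMF_AuNPs and 5815 in control from 29 EMF_AuNPs and 73 control cells. Barcodes with too few markers numbered 748 in EMF_AuNPs and 1631 in control and summed to 3917 CPM in EMF_AuNPs and 3117 in control, and those with markers of several classes numbered 1250 in EMF_AuNPs and 1597 in control and summed to 7966 CPM in EMF_AuNPs and 7875 in control.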
